A study of Mus musculus with 18 samples.

Results

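The histone mark H3K36me3 was measured by ChIP-seq in spermatocytes lacking EWSR1, and is described here at the recombination hotspots and other places where the same cells carry H3K4me3. The members are all sites of the authors' list of H3K4me3 sites shared by C57BL/6J (B6) and Ewsr1 CKO mice: 5567 distinct intervals out of 14699 in both lists deposited for the study (the other, of DMC1 sites common to B6, Ewsr1 CKO and Prdm9 het, holds 9132). No measured value of H3K36me3 was used to choose them, but each had to carry H3K4me3 in both genotypes, so sites without it are not represented.

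The mice were 14 days old and the cells were labelled as spermatocytes, which could not be checked against marker genes because no expression was measured. Ewsr1 CKO denotes Ewsr1-CKO with Stra8-iCre, a conditional knockout in which a Cre recombinase under the control of the germ cell gene Stra8 removes Ewsr1, so cells that have not yet switched on the Cre can keep the gene. H3K36me3 (2 samples, with 1 input) and H3K4me3 (2 samples) were measured in this genotype. DMC1, used below as a second readout of the same places, was measured in 2 samples each of B6, of Ewsr1 CKO and of Prdm9 het (Prdm9+/-). How many animals went into a sample is not given in the sources used here.

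PRDM9 is a zinc finger protein of early meiotic germ cells that binds a short DNA motif and methylates histone H3 on lysines 4 and 36 of the neighbouring nucleosomes. Breaks that start recombination are then made within that patch, and DMC1 coats the single-stranded DNA that results. Away from hotspots the marks have different owners: H3K4me3 sits at active promoters, and H3K36me3 is laid down by SETD2, which travels with elongating RNA polymerase II and covers the bodies of transcribed genes. EWSR1 is an RNA-binding protein that associates with PRDM9.

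No sample of this series holds H3K36me3 from a control mouse. A B6 column for H3K36me3 stands in the authors' table as their reference, but it matches no sample here and was not used, so no change on loss of EWSR1 was computed. Each group has a single column, whose relation to its 2 samples is not stated. No value below therefore has a replicate error, no p-value was computed, and differences in a mark are between sites within the same column. The depth of the H3K36me3 column is unknown. Values are in RPM, the authors' read value scaled to library depth, per site, or in RPM per kb after division by the width of the site.

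Most of these sites lay away from gene starts. Of 5567 midpoints, 84 (1.51%) were within 1 kb of a transcription start in RefSeq (GRCm38.p6, the assembly that mm10 denotes), and 53 sites held a whole annotated promoter window. The starts used do not cover every gene, so sites near other starts can be missed. The 250 bases upstream of 4 such starts are shown because they lie in the sites with the highest and lowest H3K36me3 among those that hold a window of a protein-coding gene. They are written 5′ to 3′ on the strand of the gene, in lower case with each CG dinucleotide in capitals. Dennd1b, which encodes an exchange factor for Rab35, lies at chr1:138967471-138967720 (plus strand), in a site with 1.46 RPM per kb. Zbtb46, a transcriptional repressor of the dendritic cell lineage, lies at chr2:181424389-181424638 (minus strand), in a site with 1.43 RPM per kb. Ebi3, a cytokine subunit, lies at chr17:55952373-55952622 (plus strand), in a site with 0.345 RPM per kb. The window of the predicted gene Gm6557, at chr16:21063341-21063590 (minus strand), is in a site with 0.0219 RPM per kb. Each value is that of the whole site, since none was deposited for the window alone.
Dennd1b: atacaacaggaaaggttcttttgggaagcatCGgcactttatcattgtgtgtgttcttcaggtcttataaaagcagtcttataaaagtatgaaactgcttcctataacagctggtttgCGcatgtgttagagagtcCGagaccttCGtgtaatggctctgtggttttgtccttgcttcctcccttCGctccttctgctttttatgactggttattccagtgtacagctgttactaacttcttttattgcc
Zbtb46: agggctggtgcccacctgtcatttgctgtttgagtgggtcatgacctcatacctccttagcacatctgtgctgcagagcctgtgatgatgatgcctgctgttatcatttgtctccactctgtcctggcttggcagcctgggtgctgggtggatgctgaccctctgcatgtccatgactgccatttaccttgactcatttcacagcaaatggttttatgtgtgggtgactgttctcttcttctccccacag
Ebi3: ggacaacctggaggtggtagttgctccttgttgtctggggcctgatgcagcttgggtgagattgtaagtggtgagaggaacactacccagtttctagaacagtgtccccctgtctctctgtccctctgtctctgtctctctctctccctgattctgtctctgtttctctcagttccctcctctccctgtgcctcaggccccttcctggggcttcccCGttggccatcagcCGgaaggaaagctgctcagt
Gm6557: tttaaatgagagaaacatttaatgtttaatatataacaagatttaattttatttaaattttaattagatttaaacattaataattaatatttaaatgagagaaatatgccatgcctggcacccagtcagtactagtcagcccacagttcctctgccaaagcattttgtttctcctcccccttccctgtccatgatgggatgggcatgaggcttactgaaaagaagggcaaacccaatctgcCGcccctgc

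These windows held 5, 0, 2 and 1 CG dinucleotides in the order printed. Over the 56 windows inside sites, the number of CG and the H3K36me3 of the site had a Spearman's rho of 0.408, a description of windows that partly share sites. In these windows the median number of CG was 3 and the highest 7, and over all 32851 promoter windows of the same length the median was 6, with 43.0% above 7. At least 1 CG was found in 91.1% of the windows inside sites and in 92.1% of all windows. The 56 windows, 19 of them of protein-coding genes, come from a list with few sites at starts. They are therefore not a sample of all promoters. Sites within 1 kb of a start had a median of 0.707 RPM per kb H3K36me3 and 0.607 RPM per kb H3K4me3, against 0.782 and 0.578 RPM per kb at the others. The median log2 ratio of H3K36me3 to H3K4me3 was −0.03 at starts and 0.40 elsewhere, so H3K36me3 was relatively lower at starts.

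Over all sites the median H3K36me3 value was 1.39 RPM, with quartiles of 0.925 and 2.20 RPM and a range from 0 to 11.7 RPM. RPM followed width closely (Spearman's rho 0.698 over 5567 sites of the same column). Per kb the median was 0.780 RPM, with quartiles of 0.588 and 1.14 and a highest value of 2.56 RPM per kb. The value per kb still rose with width, from a median of 0.628 RPM per kb in the narrowest of 5 width classes (503 to 1398 bp) to 1.02 RPM per kb in the widest (2182 to 11946 bp). The 90th percentile was 3.49 times the 10th for H3K36me3 per kb and 2.46 times for H3K4me3 per kb, the mark by which the sites were chosen. The 557 sites with the highest RPM of a mark held a similar share of it, 25.2% of the summed H3K36me3 and 24.0% of the summed H3K4me3.

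The position of a site relative to genes separated high from low H3K36me3. Sites with their midpoint inside a gene (3532 sites) had a median of 0.938 RPM per kb, and sites outside genes (2035 sites) 0.640 RPM per kb, a difference of 0.55 on the log2 scale (1.47-fold). H3K4me3 differed by 1.10-fold between the same sites (0.598 and 0.544 RPM per kb), and the median width was the same (1765 bp outside and 1765.5 bp inside). The difference lay at protein-coding genes. Their 3134 sites had a median of 1.00 RPM per kb, and the 398 sites that lay only in other kinds of gene model, such as long non-coding RNAs and pseudogenes, had 0.645 RPM per kb, close to the value outside genes.

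The upper range of H3K36me3 was almost wholly genic. Of the 1392 sites above the upper quartile, 1317 lay inside a gene and 1298 inside a protein-coding gene. Put the other way, 37.3% of genic sites and 3.69% of sites outside genes exceeded that level. The lower range was shared: 579 of 3532 genic sites and 813 of 2035 outside fell below the lower quartile. Genic sites, 63.4% of all, held 73.3% of the H3K36me3 RPM summed over sites and 66.4% of the H3K4me3 RPM. Inside genes the values were more widely spread, with an interquartile range of 0.670 to 1.38 RPM per kb, whereas outside genes it was 0.511 to 0.787 RPM per kb.

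**Figure D1:**
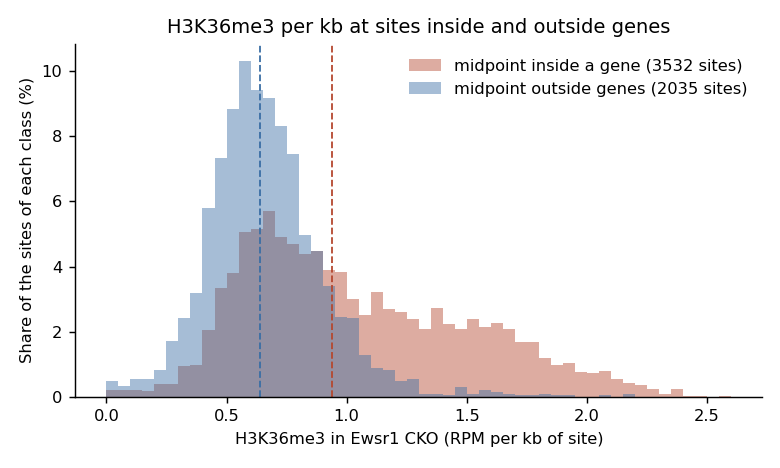
Distribution of H3K36me3 in Ewsr1 CKO per site. The horizontal axis gives RPM per kb of site and the vertical axis the share of the sites of each class in percent, for 3532 sites with the midpoint inside a gene and 2035 outside. Dashed lines mark the medians (0.938 and 0.640 RPM per kb). Both classes peak near the same low value, and the genic class has a long shoulder to the right.

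The level differed with the length of the host gene. Among sites in a single protein-coding gene, the median was 1.27 RPM per kb in genes of 30 to 100 kb (1007 sites in 894 genes) and 1.23 RPM per kb in genes of 10 to 30 kb (327 sites). It was 0.999 RPM per kb in genes of 100 to 300 kb (1015 sites) and 0.762 RPM per kb in genes over 300 kb (676 sites in 343 genes). The few sites in genes of up to 10 kb (63 sites) had 0.996 RPM per kb, so H3K36me3 was highest in genes of middle length. H3K4me3 was lower in each longer class, with medians of 0.750, 0.662, 0.627, 0.605 and 0.541 RPM per kb from the shortest genes to the longest.

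H3K36me3 also varied along genes. In genes of up to 100 kb with an annotated strand, sites in the first 10% of the gene had a median of 0.879 RPM per kb (56 sites). Sites from 40 to 60% of the way had 1.40 RPM per kb (243 sites), and those in the last 20% had 1.34 RPM per kb (256 sites). The corresponding H3K4me3 medians were 0.623, 0.629 and 0.658 RPM per kb. In genes over 100 kb the H3K36me3 medians at these positions were 0.843, 0.821 and 0.921 RPM per kb. From 10 to 20, 20 to 40 and 60 to 80% of the way they were 0.937, 0.852 and 0.936 RPM per kb. The rise away from the start was thus seen in the shorter genes and not to that extent in the longer ones. The difference between these gene classes was not tested.

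**Figure D2:**
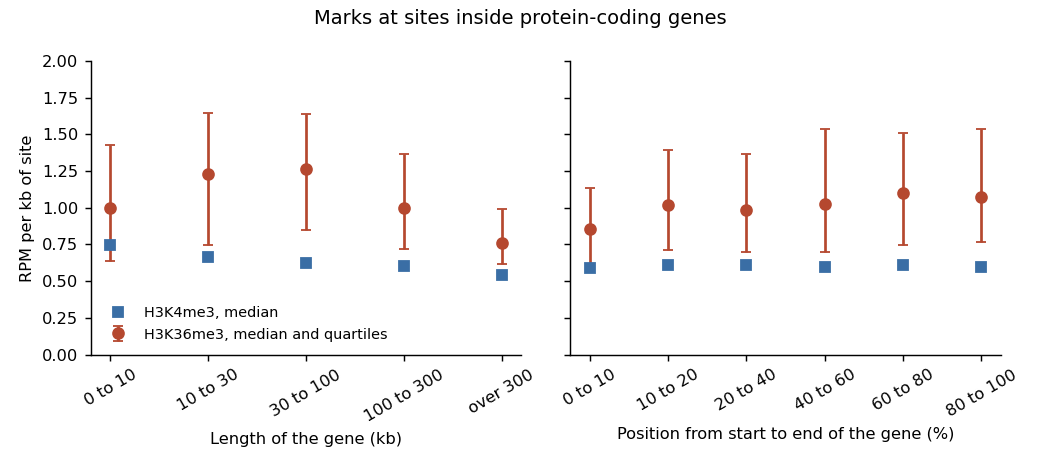
H3K36me3 (circles, median with quartiles as bars) and H3K4me3 (squares, median) in Ewsr1 CKO, in RPM per kb, at sites inside protein-coding genes. The left panel groups 3088 sites by the length of the gene in kb and the right panel groups 2462 sites by their position from start to end in percent. H3K36me3 was 1.27 RPM per kb in genes of 30 to 100 kb and 0.762 RPM per kb in genes over 300 kb, and was lowest in the first 10% of genes, at 0.859 RPM per kb.

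A list of genes with known roles in meiotic germ cells was set beside a list of long neuronal genes. Of 61 germ cell genes matched, 7 held a site, and each of these 7 sites lay above the upper quartile of all sites (1.14 RPM per kb, which Msh4 passed narrowly), with a median of 1.45 RPM per kb (range 1.14 to 1.55). Of the 3134 sites in protein-coding genes, 1298 (41.4%) lay above that quartile. The median over all sites was 0.780 and over sites in protein-coding genes 1.00 RPM per kb. Ankrd31, a gene of the machinery that places breaks in the pseudoautosomal region, had 1.55 RPM per kb at chromosome 13, 96823934 to 96825205. Iho1, which encodes a partner of HORMAD1 needed for break formation, had 1.52 RPM per kb at chromosome 9, 108405141 to 108405757. Sun1, the nuclear envelope protein that anchors meiotic telomeres, had 1.51 RPM per kb at chromosome 5, 139205967 to 139207806. Tex14, required for the intercellular bridges of germ cells, had 1.45 RPM per kb at chromosome 11, 87419271 to 87421311. The remaining genes, Mov10l1 and Tdrd1 of the piRNA pathway and the crossover gene Msh4, had 1.39, 1.20 and 1.14 RPM per kb.

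H3K4me3 at these 7 sites ran from 0.381 RPM per kb at Ankrd31 to 0.960 RPM per kb at Tex14, with a median of 0.726 RPM per kb. It was above the median of all sites (0.579 RPM per kb) at 5 of them and above the upper quartile (0.756 RPM per kb) at 3. DMC1 in Ewsr1 CKO ranged from 12.5 RPM at the Iho1 site to 394 RPM at the Mov10l1 site, and the Ankrd31 site overlapped no listed DMC1 site.

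The 50 neuronal genes, which encode mostly synaptic and cell adhesion proteins, held many more sites for their number: 84 sites in 38 genes. Their median H3K36me3 was 0.695 RPM per kb (quartiles 0.609 and 0.804). Of the 84, 25 were above the median of all sites and 2 were above the upper quartile. Among all sites in protein-coding genes these shares were 68.3% and 41.4%. Below the lower quartile were 16 of the 84, against 1392 of all 5567 sites and 419 of the 3134 sites in protein-coding genes. Among the highest were sites in Cntnap5b (1.44 RPM per kb), Erbb4 (1.15) and Grin2b (1.05), and the lowest was in Ctnna2 (0.249 RPM per kb). Their median H3K4me3 was 0.487 RPM per kb, so both marks were lower in the neuronal list than in the germ cell list. The site in Erbb4 was a strong hotspot, with 1086 RPM of DMC1 in Ewsr1 CKO. Host gene length differs between the lists, and its part in the difference was not tested. Sites in all protein-coding genes over 300 kb had a median of 0.762 RPM per kb, and those in genes of 30 to 100 kb 1.27 RPM per kb.

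Genes with many sites differed from one another in level. Of 2360 protein-coding genes with a site, 509 held 2 or more, and 6 held 6 or more. In Exoc4, an exocyst subunit gene of 725 kb, 7 sites ranged from 0.838 to 1.50 RPM per kb with a median of 1.16. In Snx29, a sorting nexin gene, 6 sites ranged from 0.778 to 1.49 with a median of 1.18 RPM per kb. In Asic2, a neuronal acid-sensing channel gene of 1088 kb, 7 sites ranged from 0.447 to 0.900 with a median of 0.682 RPM per kb, and in Macrod2 7 sites ranged from 0.530 to 1.04 with a median of 0.765. The ranges of Exoc4 and Asic2 overlapped only between 0.838 and 0.900 RPM per kb.

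Adjacent sites were similar in H3K36me3 when they lay close together, and mainly when the same gene held both. For gaps under 10 kb, Spearman's rho between neighbours was 0.756 over 190 pairs. It was 0.823 over 126 pairs within the same gene and 0.435 over 64 pairs that were not, of which 37 pairs with both sites outside genes had 0.334. For gaps of 10 to 100 kb it was 0.687 over 451 pairs in the same gene and 0.235 over 842 pairs that were not. Even at 100 kb to 1 Mb, 207 pairs in the same gene had a rho of 0.539, against 0.087 for 3249 other pairs. For H3K4me3 the coefficients within the same gene were 0.191, 0.188 and 0.199 for the same gaps, against 0.402, 0.198 and 0.169 for other pairs, so under 10 kb the order was opposite to that of H3K36me3. All pairs share the same libraries, and the coefficients are descriptions of these columns.

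**Figure D3:**
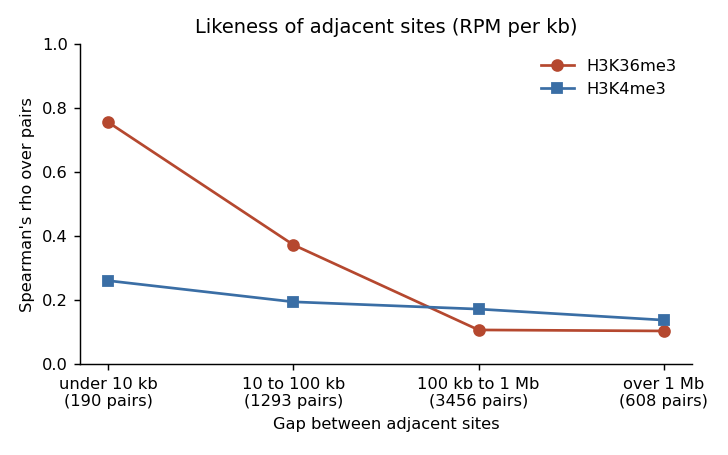
Spearman's rho between adjacent sites on a chromosome (vertical axis) by the gap between them (horizontal axis, with the number of pairs), for H3K36me3 (circles) and H3K4me3 (squares) in Ewsr1 CKO, both in RPM per kb. H3K36me3 fell from 0.756 under 10 kb to 0.104 over 1 Mb, and H3K4me3 from 0.261 to 0.138.

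The strongest sites by H3K36me3 RPM were all in protein-coding genes. The highest, 11.7 RPM, was an interval of 11946 bp in Enpp6, a choline phosphodiesterase gene, at chromosome 8, 46997869 to 47009815; per kb it held 0.978 RPM, and DMC1 in Ewsr1 CKO was 10.6 RPM there. Next came a site in Nf1, which encodes the Ras regulator neurofibromin, at chromosome 11, 79544813 to 79549190, with 10.5 RPM. Sites in Capzb (actin capping), Tanc2 (a synaptic scaffold) and Trip12 (a ubiquitin ligase) followed with 9.15, 9.06 and 8.61 RPM. Among sites of at least the median width, the highest per kb were in Ubr4 (2.56 RPM per kb), a ubiquitin ligase gene, at chromosome 4, 139449358 to 139452208, and in the telomere helicase gene Rtel1 (2.47 RPM per kb) at chromosome 2, 181335980 to 181338896. Wdr36, of ribosomal RNA processing, had 2.42 RPM per kb at chromosome 18, 32847483 to 32849608. Nf1 and the nucleophosmin gene Npm1 followed with 2.40 and 2.38 RPM per kb. H3K4me3 at these 5 sites with the highest value per kb ran from 0.393 RPM per kb at Npm1, below the lower quartile of all sites (0.467), to 1.71 RPM per kb at Ubr4, above the upper quartile (0.756).

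H3K36me3 exceeded H3K4me3, both in RPM, at 4137 sites (74.3%), with a median log2 ratio of 0.39. The columns come from different antibodies and libraries, so only differences in this ratio between sites can be read. The median log2 ratio was 0.62 in protein-coding genes and 0.18 outside genes. Among sites at or above the median of the mean of both marks, the highest ratios were in Smarca5, a chromatin remodeller (4.33 RPM H3K36me3 and 0.685 RPM H3K4me3, 6.33-fold), Mga, a MAX partner (6.17-fold), Npm1 (6.06-fold), Sec63 of protein translocation into the endoplasmic reticulum (5.95-fold) and the splicing factor gene Srsf11 (5.59-fold). Across sites the marks were moderately related per kb (rho 0.399 over 5567 sites), with 0.339 inside genes and 0.437 outside. The shared width of each site enters both values.

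**Figure D4:**
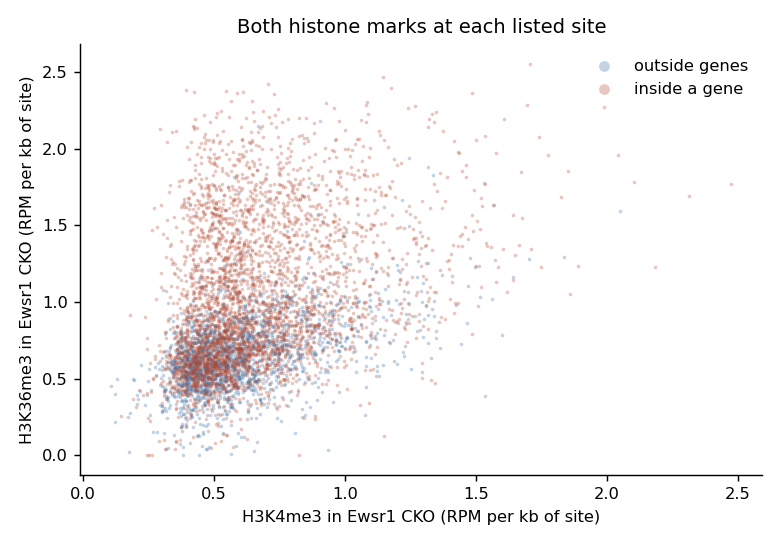
H3K36me3 (vertical axis) against H3K4me3 (horizontal axis) in Ewsr1 CKO at 5567 sites, in RPM per kb of site. Each point is a site, coloured by whether its midpoint lies inside a gene. Points outside genes form a single band that rises with H3K4me3, and genic points extend above it over most of the H3K4me3 range.

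Under the same limit on the mean of both marks, the 5 lowest ratios of H3K36me3 to H3K4me3 were the following. At chromosome 14, 53714447 to 53718355, in the T cell receptor alpha locus (Tcra), H3K4me3 was 3.46 RPM and H3K36me3 0.921 RPM. At chromosome 12, 113698409 to 113701512, in the immunoglobulin heavy chain locus (Igh), the values were 2.62 and 0.751 RPM. In Bbs7, a ciliary trafficking gene, at chromosome 3, 36587947 to 36590437, they were 2.21 and 0.638 RPM. The other sites of this rule were one at chromosome 13, 66601865 to 66604111, outside genes (2.42 and 0.595 RPM) and one in the pseudogene Gm13042 (2.28 and 0.706 RPM). Each of these 5 sites overlapped a listed DMC1 site, as did 89.7% of all sites, with 28.5 to 197 RPM of DMC1 in Ewsr1 CKO.

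At 5 sites H3K36me3 was listed at 0 although H3K4me3 was 0.661 to 1.05 RPM. A pair of these was in Tcra, at chromosome 14, 53019239 to 53021955 and 53322724 to 53326029. Others lay in Gm8126 on chromosome 14 (43250786 to 43252052), 14.8 kb from the vomeronasal pseudogene Vmn2r-ps108 on chromosome 13 (66828015 to 66830258) and 2.19 kb from the zinc finger gene Zfp971 on chromosome 2 (178037264 to 178038831). None of the 5 overlapped a listed DMC1 site, and 10.3% of all sites did not. Among sites of at least the median width, the next lowest were in the pseudogene Vmn2r-ps17 on chromosome 4 (146126676 to 146128602, 0.0032 RPM per kb) and outside genes on chromosome 13 (65526997 to 65528853, 0.0069 RPM per kb). How reads that match more than 1 place were counted is not given in the sources used here.

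Sites on the DMC1 list had more H3K36me3, but they were also wider. That list holds only DMC1 sites common to the 3 genotypes, so a site without an entry may still have DMC1 in some of them. The 4992 sites that shared at least 1 bp with a listed DMC1 site had a median of 0.793 RPM per kb and a median width of 1809.5 bp, and the 575 without had 0.625 RPM per kb and 1380 bp. The log2 difference was 0.34 (1.27-fold), and averaged within 5 width classes it was 0.078, so little of it was left among sites of like width. H3K4me3 differed by 1.08-fold. The sites without a listed DMC1 site were also unevenly spread over the chromosomes. On chromosome 17, 118 of 202 sites (58.4%) had a DMC1 site, and the next lowest share was 86.2%, on chromosome 5. The median H3K36me3 over all chromosome 17 sites was 0.840 RPM per kb. The part of chromosome 17 in the difference was not tested. Divided into 4 equal classes by H3K36me3 per kb, 81.0% of the sites in the lowest class had a DMC1 site, against 92.7, 92.6 and 92.3% in the others.

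Among sites with DMC1 and outside genes, more H3K36me3 went with more DMC1 and with wider sites. When the 1833 sites outside genes were divided into 4 classes of nearly equal size by H3K36me3 per kb, the median DMC1 in Ewsr1 CKO was 45.7, 66.5, 98.7 and 142 RPM from the lowest to the highest class. The median width of these classes was 1528, 1727.5, 1875.5 and 2121 bp, and DMC1 was not divided by width. The B6 medians were 36.7, 56.3, 85.1 and 124 RPM and the Prdm9 het medians 7.41, 12.7, 19.3 and 29.4 RPM, so the order was the same in the DMC1 data of each genotype, over sites that had to be listed in all of them. Inside genes the medians were 50.8, 79.5, 80.5 and 93.7 RPM in Ewsr1 CKO and 44.4, 71.5, 74.98 and 100.2 RPM in B6, rising at each step. In Prdm9 het they were 9.22, 15.2, 14.9 and 18.0 RPM, with the third class slightly below the second. Over all sites the highest class was below the one before it, with 90.3 against 95.7 RPM in Ewsr1 CKO and 17.2 against 20.8 RPM in Prdm9 het, but above it in B6, with 94.5 against 90.5 RPM. The difference between genic and other sites was not tested.

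The same contrast was seen in rank correlations. H3K36me3 per kb and DMC1 in Ewsr1 CKO had a rho of 0.226 over 3159 genic sites and 0.411 over 1833 sites outside genes. For H3K4me3 per kb the corresponding values were 0.132 and 0.057. With B6 DMC1 they were 0.272 and 0.433 for H3K36me3 and 0.180 and 0.149 for H3K4me3. With Prdm9 het DMC1 they were 0.205 and 0.451 for H3K36me3 and 0.237 and 0.191 for H3K4me3, so inside genes H3K4me3 had the higher coefficient in that genotype. These coefficients share the same sites and histone columns and are descriptions only. Width rose along with DMC1 (rho 0.553 in Ewsr1 CKO outside genes). Over all 2035 sites outside genes, width had a rho of 0.473 with H3K36me3 per kb and 0.235 with H3K4me3 per kb. Within width classes the coefficient of H3K36me3 with DMC1 in Ewsr1 CKO was 0.218 outside genes, and over all sites it fell to 0.077. For H3K4me3 it was not computed within width classes, so the marks are not compared at like width. DMC1 values were not divided by width.

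On the X chromosome, which is a single copy in males and is silenced during meiosis, H3K36me3 was lower per kb. The 99 X sites had a median of 0.623 RPM per kb, below each of the 19 autosomes, whose medians ran from 0.682 (chromosome 13) to 0.863 RPM per kb (chromosome 16). Against all autosomal sites the log2 difference was −0.33. It was −0.40 among sites inside genes (57 on the X, 0.715 against 0.943 RPM per kb) and −0.28 outside (42 on the X, 0.527 against 0.642 RPM per kb). H3K4me3 was lower on the X as well, with a log2 difference of −0.36 over all sites. The X sites were wider, with a median of 2172 bp against 1758 bp. In RPM not divided by width the difference was −0.018 over all sites, 0.034 inside genes and 0.077 outside, so the lower X level holds per kb only. Genic X sites were higher than X sites outside genes, as on the autosomes. The highest X site by RPM was in Ammecr1 at 142895370 to 142899321, with 4.19 RPM H3K36me3 and 544 RPM DMC1 in Ewsr1 CKO.

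**Figure D5:**
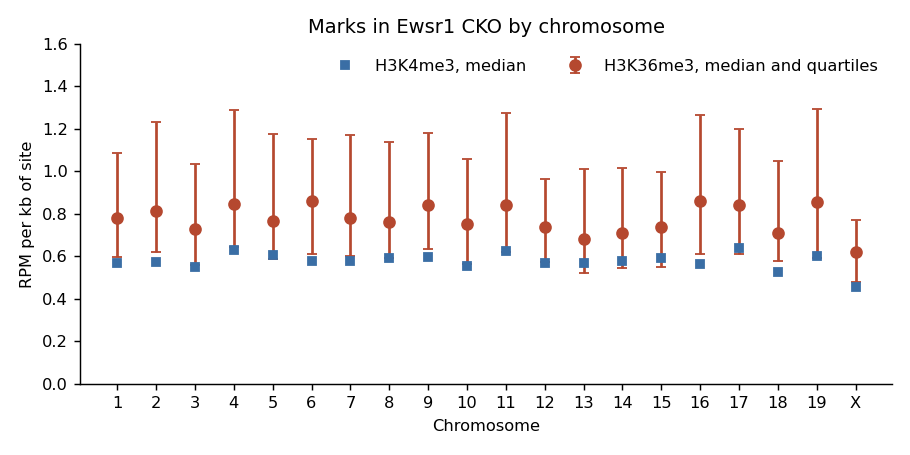
H3K36me3 (circles, median with quartiles as bars) and H3K4me3 (squares, median) in Ewsr1 CKO over the sites of each chromosome, in RPM per kb of site. The X has the lowest median of both marks, 0.623 and 0.454 RPM per kb.

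The median H3K36me3 per kb was nearly the same near the distal chromosome end and elsewhere. Autosomal sites lying 10 Mb or less from the most distal site on the same chromosome (460 sites) had a median of 0.786 RPM per kb and the other 5008 had 0.784 RPM per kb, a log2 difference of 0.005. The difference was 0.060 for a distance of 5 Mb and −0.081 in RPM not divided by width, so its sign is not settled. The distal sites had more values in both tails, with 30.7% against 24.9% above the upper quartile of all sites and 29.6% against 24.2% below the lower. H3K4me3 was 1.06-fold higher at the distal sites, and the median log2 ratio of H3K36me3 over H3K4me3 was 0.29 there and 0.40 elsewhere.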

How the data were processed

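The authors deposited the values in RPM, per the file headers, in 1 column for each group. Which reads make the denominator, whether input was subtracted and how replicates were merged are not given in the sources used here. BWA 0.5.10, Trimmomatic 0.32 and mm10 are named, per the submitters' processing notes. Of 10 value columns 5 were used; 4 matched no sample of this series, and 1 gives H3K4me3 at DMC1 sites. Of 5787 lines, 220 repeated an interval. The 157 repeated intervals were averaged, and their lines differed by a median of 0.268% (at most 4.29%) of the mean. No common step that would give whole reads was found.

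H3K36me3 values were divided by site width (end minus start). Classes of sites were compared by the difference of median log2 values without pseudocount, where a 0 ranks lowest. Genes, starts and promoter sequences came from RefSeq GRCm38.p6. A site is inside a gene when its midpoint is. Strand and transcription starts were taken from the promoter table, which covers 17492 of 21900 protein-coding genes. Named sites are the 5 highest by RPM, the 5 highest and lowest per kb among sites of at least median width, the 5 highest and lowest ratios of H3K36me3 to H3K4me3 where the mean RPM of both marks reached its median, and the highest X site. Those listed at 0, the genes with 6 or more sites and the printed promoters were added after values were seen. Of the 64 germ cell gene names 1 had no match, and the others named 61 genes because some are synonyms. Some sites that these rules name are not reported here. The members and gene lists were chosen with earlier results of these data known. Scripts ran under pandas 2.3.3, scipy 1.17.1, numpy 2.4.6, matplotlib 3.10.9 and Python 3.11.15 and were tested on simulated data.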

Additional observations from a re-analysis of the deposited data

How the results depend on the processing

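The levels, the class differences (genes, DMC1, X, distal sites) and the correlations were recomputed under the alternatives; values by gene length, position, gene list, gene start and mark ratio were not. Moves under 0.05 (in log2 or rho units, or 5% of a median level) were taken as unchanged, as no replicate spread exists. Of 54 recomputed main values 37 did not move, among them all 6 for the median levels. Without division by width, the values were −0.018 for X against autosomes, 0.80 for sites with against without DMC1, −0.081 for distal sites (a change of sign), 0.68 for rho with H3K4me3, 0.41 for rho with DMC1 and 0.63 for neighbours under 10 kb. In the middle 80% of widths, X against autosomes was −0.41 and with against without DMC1 0.16. A pseudocount of 0.1 RPM gave 0.27 for the latter. Protein-coding genes only gave 0.64 for inside against outside genes, and a distance of 5 Mb gave 0.060 for distal sites. The following were chosen after seeing the data. Inside genes X against autosomes was −0.40. Outside genes rho with DMC1 was 0.41 and that of neighbours 0.33. Within width classes, with against without DMC1 was 0.078, rho with H3K4me3 0.34 and rho with DMC1 0.077. Except for width, which these settings change by construction, the cause was not tested.

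No paired analysis was possible because each group is a single column without replicate numbers; for the same reason no replicate was left out. The H3K36me3 depth is unknown, so the counting error of low values cannot be estimated.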
